A study of Mus musculus with 12 samples.

Results

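Membrane excitability was followed through 6 ion channel genes of C2C12 cells, Scn4a, Scn3b, Clcn1, Kcnj2, Kcnn3 and Kcnh1, out of 46983 genes in the expression table. The genes were picked by name, and Scn4a was picked for its interaction of cell type and day (how far the change over the days in PPARγ/+ cells departed from the one in WT cells), which ranked 14 from the lowest among 18023 genes tested. The coefficient was -3.62 on the log2 scale, and the genes on either side of it in that order had -3.65 (Gm24727) and -3.61 (Snord110). The interaction of all 6 genes and every change or difference of Scn4a are therefore given as descriptions without a test, because Scn4a was close to 0 on 0d in both cell types and its day and cell type differences all rest on the same libraries of 5d. Of the 6 genes, 5 reached 0.1 FPKM in at least 3 of the 12 libraries and entered the fits, and Scn3b did not. Scn4a and Kcnh1 reached that level only in libraries of 5d, and Kcnn3 on 0d only in PPARγ/+ replicate 3 (0.11 FPKM). FPKM counts the fragments of a gene relative to its exon length and to the library size.

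C2C12 is a mouse myoblast line that leaves the cell cycle and fuses into multinucleated myotubes when differentiation is induced. RNA was sequenced from wild type cells carrying the PiggyBac vector PB-IP (WT cells) and from cells transfected with the same vector holding the PPARγ coding sequence (PPARγ/+ cells), each on 0d and on 5d of differentiation. Each of the 4 groups had 3 libraries. All cells derive from 1 line, the control cells carry the empty vector, and transfected cells were selected with puromycin for resistant clones, with the number of clones per cell type not given in the sources used here. PPARγ is a nuclear receptor that drives adipocyte differentiation, and Pparg itself was measured at 3.12 to 7.56 FPKM in the WT libraries and at 28.0 to 92.7 FPKM in the PPARγ/+ libraries, with no overlap. Myod1, the myoblast determination factor, was present in all 12 libraries. It was at 6.57 to 21.5 FPKM in WT cells and 5.03 to 9.68 FPKM in PPARγ/+ cells on 0d. On 5d it was at 19.9 to 41.5 FPKM in WT cells and 19.6 to 22.1 FPKM in PPARγ/+ cells, and the cell types overlapped on both days.

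The excitability of a muscle fibre rests on a division of labour between channels. Voltage-gated sodium channels carry the rising phase of the action potential along the sarcolemma and into the transverse tubules, potassium and chloride channels set the resting potential and bring the membrane back to it, and calcium channels of the tubules pass the signal on to contraction. During myoblast differentiation this set is built up together with the contractile proteins, and inward rectifier and ether-a-go-go potassium channels are known for the hyperpolarisation that comes before fusion.

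Scn4a, the gene picked for its interaction, which rests on these libraries, was the 1 of 5 members in the fits whose libraries did not overlap between WT and PPARγ/+ cells on 5d, as 18.5% of all genes did not. It reached a mean of 4.31 ± 2.45 FPKM (SD, n = 3) in WT cells and 0.166 ± 0.0559 FPKM (SD, n = 3) in PPARγ/+ cells. Kcnn3, an apamin-sensitive calcium-activated potassium channel, rose by 2.999 on the log2 scale in WT cells and by 2.91 in PPARγ/+ cells and reached 1.16 ± 0.626 FPKM in WT cells and 1.13 ± 0.25 FPKM in PPARγ/+ cells (SD, n = 3 each). Kcnj2, the inward rectifier, was the most abundant of the 6 genes in every library, Clcn1 and Kcnh1 stayed under 0.5 FPKM, and Scn3b stayed under 0.1 FPKM.

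The promoter sequences of Scn4a, Kcnn3 and Clcn1 are shown as examples of 3 patterns. These are a higher level on 5d mainly in WT cells, a rise in both cell types and no detected change. Kcnj2 had another pattern, a fall in PPARγ/+ cells under the 2-fold limit, and its sequence is not shown. Each sequence shown is the 250 bases before the RefSeq transcription start in build GRCm38.p6, 5′ to 3′ on the strand of the gene. Capitals mark the motifs found, which are the E-box CANNTG and the MEF2 consensus. The windows are chr11:106349391-106349640 on the minus strand for Scn4a, chr3:89519914-89520163 on the plus strand for Kcnn3 and chr6:42286435-42286684 on the plus strand for Clcn1.
Scn4a: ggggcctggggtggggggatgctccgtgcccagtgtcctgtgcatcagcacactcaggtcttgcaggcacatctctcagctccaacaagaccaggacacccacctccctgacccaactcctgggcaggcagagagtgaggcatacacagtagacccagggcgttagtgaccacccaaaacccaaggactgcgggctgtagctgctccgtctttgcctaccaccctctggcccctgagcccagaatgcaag
Kcnn3: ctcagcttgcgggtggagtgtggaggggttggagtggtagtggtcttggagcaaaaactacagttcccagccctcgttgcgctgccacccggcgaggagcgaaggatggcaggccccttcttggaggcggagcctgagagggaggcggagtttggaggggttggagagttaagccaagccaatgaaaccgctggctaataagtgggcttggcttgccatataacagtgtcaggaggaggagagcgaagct
Clcn1: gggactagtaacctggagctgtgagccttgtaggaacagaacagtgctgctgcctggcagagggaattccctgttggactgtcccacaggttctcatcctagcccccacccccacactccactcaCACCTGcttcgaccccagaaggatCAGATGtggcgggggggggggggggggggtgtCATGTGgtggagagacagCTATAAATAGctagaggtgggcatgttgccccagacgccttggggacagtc

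Both strands were searched for 4 motifs. The E-box CANNTG is the letters bound by myogenic basic helix-loop-helix factors, CAGCTG is the form of it preferred by MyoD and myogenin and lies within it, the MEF2 consensus is the site of the MEF2 factors, and the PPAR consensus is the letters AGGTCA repeated with 1 base between. Among 32851 mouse promoters of the same length, 66.2% held an E-box, 13.0% held CAGCTG, 0.508% held the MEF2 consensus and 0.0335% held the PPAR consensus. The promoters of Scn4a, Kcnn3 and Kcnh1 held none of the 4. The Clcn1 promoter held 3 E-boxes and 1 MEF2 consensus, which began 51 bases before the start, and the Kcnj2 promoter held 2 E-boxes, of which 1 was CAGCTG. These matches describe letters in 1 window per gene. RefSeq gave promoters for 5 of the 6 genes, and the start used for Scn4a, at position 106349390, lies inside the gene as the reference annotation draws it.

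Scn4a encodes the pore subunit NaV1.4, the sodium channel of adult skeletal muscle. The gene (ENSMUSG00000001027) lies on the minus strand of chromosome 11 from 106318592 to 106353288 in GRCm38. In WT cells on 0d the 3 libraries held 0.0146, 0.0507 and 0 FPKM, and on 5d they held 6.64, 4.56 and 1.75 FPKM. In PPARγ/+ cells all 3 libraries were at 0 on 0d, and on 5d they held 0.123, 0.145 and 0.229 FPKM. Each library of 5d therefore lay above every library of 0d in its own cell type, and the lowest WT library on 5d lay above the highest PPARγ/+ library.

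The fragments behind these values, recovered from the FPKM, show how far the depth carries them. Scn4a had 2, 9 and 0 fragments in the WT libraries of 0d and 1190, 619 and 280 in those of 5d. The PPARγ/+ libraries had no fragment on 0d, which allows a mean level of up to 0.0178 FPKM at 3 fragments per library, and 18, 22 and 30 fragments on 5d. Summed over 3 libraries, WT cells had 2089 fragments against 70 in PPARγ/+ cells on 5d, a ratio per depth of 26.9. The ratio of WT cells on 5d to WT cells on 0d was 191, and PPARγ/+ cells on 5d were at least 9.34-fold higher than the mean level that 3 fragments per library would give on 0d. These ratios rest on the libraries that chose Scn4a and are given without an interval. They pool the libraries of a group and do not show the spread between them.

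On the log2(FPKM + 0.1) scale the change of Scn4a from 0d to 5d was 5.01 (SE 0.49) in WT cells and 1.39 (SE 0.24) in PPARγ/+ cells. PPARγ/+ minus WT was -0.26 (SE 0.40) on 0d and -3.88 (SE 0.40) on 5d. The value added to the FPKM limits these sizes for a gene at 0, so the difference on 5d was -2.07 with 1 FPKM added and -4.46 with 0.01 added. Without WT_5d replicate 3, whose Scn4a level was the lowest of its group, the difference on 5d was -4.42. In bulk RNA a lower level can come from fewer cells that express the gene or from less RNA per cell, and these cannot be told apart.

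**Figure D1:**
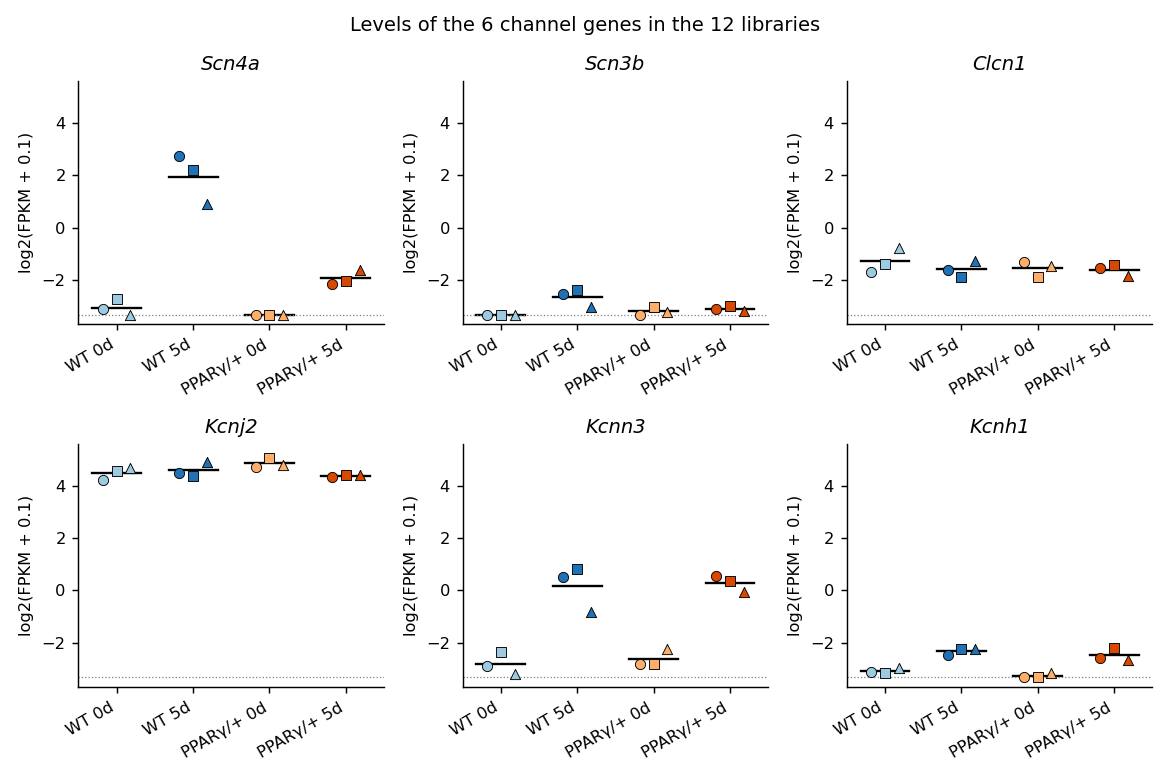
Level of each of the 6 channel genes as log2(FPKM + 0.1) in the 12 libraries, with 1 point per library (circle, square and triangle for replicates 1, 2 and 3), a bar at the group mean and a dotted line at an FPKM of 0. Scn4a separates WT cells on 5d, at 1.75 to 6.64 FPKM, from PPARγ/+ cells on 5d, at 0.123 to 0.229 FPKM, while Kcnn3 rises in both and Kcnj2 stays between 18.4 and 32.9 FPKM.

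Like Scn4a, the myotube markers rose from 0d to 5d in both cell types. Their sums on 5d overlapped between the cell types through WT_5d replicate 3, although most single markers did not. The part of myotube content in the Scn4a difference was not tested. The summed level of 10 myotube markers (Myog, Ckm, Acta1, Mylpf, Tnni2, Tnnt3, Myh3, Mymk, Casq1 and Pygm) was 14.7 to 150.2 FPKM in WT cells and 10.4 to 32.6 FPKM in PPARγ/+ cells on 0d. On 5d it was 6429, 4722 and 1361 FPKM in the WT libraries and 1318, 1494 and 1557 FPKM in the PPARγ/+ libraries. All 10 markers rose from 0d to 5d in both cell types, and 1 of the 10 was called lower in PPARγ/+ cells on 5d, with 6 of 10 at an unadjusted p of at most 0.05 by limma. The 1 called was Casq1, the calsequestrin of the sarcoplasmic reticulum, at -3.14 on the log2 scale (SE 0.55, adjusted p = 0.019), named after its values were seen. WT_5d replicate 3 thus had a marker sum within the range of the PPARγ/+ libraries, and WT_0d replicate 2, at 150.2 FPKM, stood above the rest of 0d. Taken singly, 6 of the 10 markers in WT_5d replicate 3 lay above every PPARγ/+ library of 5d, 2 within their range and 2 below it. In WT_5d replicates 1 and 2 all 10 lay above.

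Levels on 5d are also given per 1000 FPKM of the marker sum, as a description. The WT libraries held 1.03, 0.965 and 1.28 FPKM of Scn4a on this scale and the PPARγ/+ libraries held 0.0936, 0.0973 and 0.147, and these are the same Scn4a values that chose the gene. Ckm, the muscle creatine kinase and itself 1 of the 10 markers, was at 10.5, 8.31 and 8.85 in WT cells and at 2.61, 3.26 and 3.66 in PPARγ/+ cells, also without overlap and in the same direction. Myog, the myogenic factor of early differentiation, was at 42.2, 45.5 and 66.1 in WT cells and at 59.8, 57.5 and 58.0 in PPARγ/+ cells, which overlapped. The markers thus did not differ evenly between the cell types.

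Per 1000 FPKM of the marker sum, Kcnn3 was at 0.208, 0.356 and 0.343 FPKM in the WT libraries of 5d and at 1.03, 0.78 and 0.556 in the PPARγ/+ libraries, so that the cell types separated in the other direction. Cacna1s, the pore subunit of the tubular calcium channel, was at 2.30, 2.36 and 2.35 in WT cells and at 2.15, 2.07 and 1.59 in PPARγ/+ cells. In WT_5d replicate 3 the ratio to the PPARγ/+ mean of 5d ran from 0.718 (Acta1) to 2.93 (Casq1) over the 10 markers, was 2.58 for Ckm and was 10.5 for Scn4a and 0.412 for Kcnn3. The ratios share their denominator and were not tested.

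**Figure D2:**
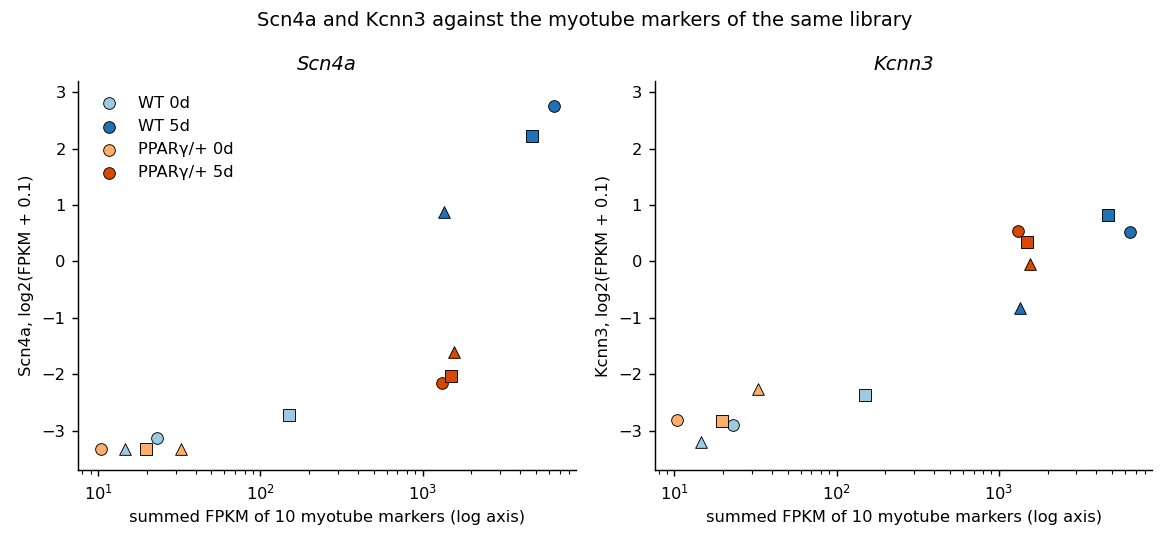
Scn4a (left) and Kcnn3 (right) as log2(FPKM + 0.1) against the summed FPKM of 10 myotube markers in the same library on a log axis, with 1 point per library coloured by group and shaped by replicate number (circle 1, square 2, triangle 3). At marker sums between 1318 and 1557 FPKM, WT_5d replicate 3 held 1.75 FPKM of Scn4a and the PPARγ/+ libraries of 5d 0.123 to 0.229 FPKM, while for Kcnn3 the same WT library, at 0.466 FPKM, was the lowest of 5d.

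Several lists of markers of other cell types also stood apart between the cell types on 5d. The summed level of 7 adipocyte markers was 0.0345 to 0.0794 FPKM in WT cells, 2.90 to 5.04 FPKM in PPARγ/+ cells on 0d and 13.3 to 67.2 FPKM in PPARγ/+ cells on 5d, with Lep at 0 in all 12 libraries. Of the 5 tested, 4 were called higher in PPARγ/+ cells on 5d, where 0.571% of all genes were. All 5 passed the filter only through PPARγ/+ libraries, so this count is a description. Cardiomyocyte markers, with Myl7 at 0 in WT cells, summed on 5d to 2.79 to 4.01 FPKM in WT cells and 1.72 to 1.96 FPKM in PPARγ/+ cells. Smooth muscle markers, which include Des and Acta2 of cultured myoblasts, summed to 1236 to 1877 FPKM in WT cells and 1054 to 1204 FPKM in PPARγ/+ cells. Glia and Schwann cell markers, with Sox10 at 0 in every library, summed to 0.587 to 0.643 FPKM in WT cells and 0.741 to 0.772 FPKM in PPARγ/+ cells. The sums of these 4 lists did not overlap between the cell types on 5d, and their part in the Scn4a difference was not tested. Neuron markers, with Snap25 and Elavl4 at 0 in every library, summed to 10.3 to 20.1 FPKM and 12.4 to 14.9 FPKM on 5d, and immune cell markers to 2.14 to 3.51 FPKM and 2.99 to 3.84 FPKM, which overlapped. Apart from the adipocyte list, none of these lists had a marker called between the cell types on 5d, with 0, 0, 2, 1 and 1 at an unadjusted p of at most 0.05 by limma for neurons, glia, cardiomyocytes, immune cells and smooth muscle. Proliferation markers fell together from 0d to 5d, with 5 of 5 called lower in each cell type and sums of 28.5 to 37.5 FPKM in WT cells and 29.2 to 29.7 FPKM in PPARγ/+ cells on 5d.

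Scn3b encodes an auxiliary beta subunit that sets the gating and surface level of sodium channel pores. The gene (ENSMUSG00000049281) lies on chromosome 9 from 40269217 to 40291618 in GRCm38. It was at 0 in all 3 WT libraries of 0d and at 0.0708, 0.0934 and 0.0237 FPKM on 5d, and PPARγ/+ cells held 0, 0.0207 and 0.00826 FPKM on 0d and 0.0174, 0.0252 and 0.0097 FPKM on 5d. Most of these values are a few fragments, namely 10, 10 and 3 in WT cells and 2, 3 and 1 in PPARγ/+ cells on 5d. The levels of WT_5d replicate 3 and of the PPARγ/+ libraries overlapped. Summed over libraries the ratio of WT to PPARγ/+ cells on 5d was 3.45 with an exact 95% interval from 1.37 to 10.4, which covers counting error only, and WT cells on 5d were at least 2.59-fold higher than the level that 3 fragments per library would give on 0d.

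Clcn1 encodes ClC-1, the chloride channel that stabilises the resting potential of muscle fibres and whose loss causes myotonia. The gene (ENSMUSG00000029862) lies on chromosome 6 from 42286685 to 42315756 in GRCm38 and shares 445 bases of exon with Fam131b on the opposite strand. The libraries held 0.209, 0.278 and 0.485 FPKM in WT cells on 0d and 0.224, 0.172 and 0.315 FPKM on 5d. PPARγ/+ cells held 0.302, 0.17 and 0.262 FPKM on 0d and 0.24, 0.274 and 0.178 FPKM on 5d. All 4 groups overlapped. The library kit does not mark the strand, and Fam131b, a neighbour named after its values were seen, was at 8.43 to 14.8 FPKM, so the level of Clcn1 is uncertain.

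The log2 change of Clcn1 from 0d to 5d was -0.30 (SE 0.32, adjusted p = 0.5) in WT cells and -0.05 (SE 0.24, adjusted p = 0.891) in PPARγ/+ cells. PPARγ/+ minus WT was -0.27 (adjusted p = 0.647) on 0d and -0.02 (adjusted p = 0.991, 95% interval from -0.65 to 0.61) on 5d. Neither a rise with differentiation nor a difference between the cell types was detectable at 18 to 61 fragments per library.

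Kcnj2 encodes Kir2.1, the inward rectifier potassium channel that holds the resting potential near the potassium equilibrium. The gene (ENSMUSG00000041695) lies on chromosome 11 from 111066164 to 111076821 in GRCm38. The libraries held 18.4, 23.4 and 25.4 FPKM in WT cells on 0d, 22.1, 20.7 and 29.9 FPKM on 5d, 26.1, 32.9 and 27.5 FPKM in PPARγ/+ cells on 0d and 19.8, 21.05 and 21.3 FPKM on 5d. The PPARγ/+ libraries of 0d lay above the WT libraries of 0d and above the PPARγ/+ libraries of 5d without overlap, and neighbours in the order of the group means overlapped.

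In PPARγ/+ cells the log2 change of Kcnj2 from 0d to 5d was -0.47 (SE 0.09, adjusted p = 0.00567), which is 0.718 of the level of 0d and under the 2-fold limit for a call. In WT cells it was 0.11 (SE 0.18, adjusted p = 0.673). PPARγ/+ minus WT was 0.37 (SE 0.15, adjusted p = 0.185) on 0d and -0.21 (SE 0.15, adjusted p = 0.565) on 5d. The coefficient of interaction was -0.58 (SE 0.21), given without a test.

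Kcnn3 encodes SK3, a small-conductance potassium channel opened by intracellular calcium that is known from immature and denervated muscle. The gene (ENSMUSG00000000794) lies on chromosome 3 from 89520164 to 89675132 in GRCm38. In WT cells the libraries held 0.0345, 0.0948 and 0.00827 FPKM on 0d and 1.34, 1.68 and 0.466 FPKM on 5d. In PPARγ/+ cells they held 0.0431, 0.0404 and 0.11 FPKM on 0d and 1.36, 1.17 and 0.865 FPKM on 5d. The days did not overlap in either cell type, and the cell types overlapped on both days.

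The rise of Kcnn3 was 2.999 on the log2 scale (SE 0.48, adjusted p = 0.00456) in WT cells and 2.91 (SE 0.26, adjusted p = 0.000217) in PPARγ/+ cells, and every library of 5d lay above every library of 0d. Kcnn3 passed the filter through its libraries of 5d, so these p-values are not independent of the filter. By fragments, 806 against 34 in WT cells gave a ratio of 23.8 (exact 95% interval from 16.9 to 34.6) and 725 against 47 in PPARγ/+ cells gave 18.3 (from 13.6 to 25.2), counting error only. PPARγ/+ minus WT on 5d was 0.10 (SE 0.40, adjusted p = 0.942), with a 95% interval from -0.79 to 0.99. That interval does not show equal levels, and without WT_5d replicate 3 the difference was -0.40. On 0d the difference was 0.19 (SE 0.40, adjusted p = 0.837).

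Kcnh1 encodes EAG1, the ether-a-go-go potassium channel known from the onset of myoblast fusion. The gene (ENSMUSG00000058248) lies on chromosome 1 from 192190774 to 192510159 in GRCm38. WT cells held 0.0141, 0.0108 and 0.0295 FPKM on 0d and 0.0803, 0.113 and 0.114 FPKM on 5d, and PPARγ/+ cells held 0, 0 and 0.0125 FPKM on 0d and 0.0658, 0.114 and 0.0587 FPKM on 5d. The days did not overlap in either cell type, while the cell types overlapped on each day. No library had more than 19 fragments.

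The log2 change of Kcnh1 was 0.78 (SE 0.22, adjusted p = 0.0351) in WT cells and 0.77 (SE 0.24, adjusted p = 0.0356) in PPARγ/+ cells, under the 2-fold limit on the log2(FPKM + 0.1) scale, which understates changes at this level. Kcnh1 passed the filter only through libraries of 5d, so these p-values are not independent of the filter and describe the rise without testing it. With 0.01 added, both changes passed it, at 2.04 and 2.72. By fragments the ratio of 5d to 0d was 5.57 (exact 95% interval from 2.71 to 12.9) in WT cells and 21.4 (from 5.51 to 183) in PPARγ/+ cells, counting error only. PPARγ/+ minus WT on 5d was -0.18 (SE 0.24, adjusted p = 0.765), with a 95% interval from -0.70 to 0.34.

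Over the members tested, Kcnn3 was the 1 of 4 called higher on 5d in WT cells, where 8.94% of all genes tested were called higher, and the 1 of 4 called higher in PPARγ/+ cells, where 9.11% were. No member tested was called lower, against 7.53% and 6.06% of all genes, and calls in either direction made up 16.5% and 15.2%. Over both cell types 1 of 4, again Kcnn3, was called higher, against 8.72% of all genes higher, 6.08% lower and 14.8% in either direction. Kcnn3 and Kcnh1 passed the filter through libraries of 5d, so these counts between the days are a description. Between the cell types 0 of 4 members were called on 0d, with 1 at an unadjusted p of at most 0.05 by limma, and 0 of 4 on 5d, with 0 at that unadjusted p. Of all genes, 1.96% were called on 0d (0.571% higher and 1.39% lower) and 1.1% on 5d (0.571% higher and 0.533% lower). Over both days 0 of 4 members were called, with 0 at an unadjusted p of at most 0.05 by limma, against 1.71% of all genes (0.605% higher and 1.1% lower). Libraries did not overlap between the days for 3 of 5 members in WT cells, against 51.1% of all genes, and for 4 of 5 in PPARγ/+ cells, against 58.1%. Between the cell types they did not overlap for 1 of 5 members on 0d, which was Kcnj2, against 26.8% of all genes, and for 1 of 5 on 5d, which was Scn4a, against 18.5%.

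Channels, pumps and anchors of the same functions were followed as 116 further genes in 11 groups, of which 54 entered the tests. From 0d to 5d, 21 of the 54 were called higher and 3 lower in WT cells, and 14 higher and 1 lower in PPARγ/+ cells. In WT cells the 54 had a median log2 change of 0.60, and in PPARγ/+ cells one of 0.41, beside medians of -0.08 and -0.10 over all genes. Between the cell types 6 of the 54 were called lower in PPARγ/+ cells on 0d and 3 on 5d, and none was called higher. The interaction gave 0 calls among the 54 by limma, with 12 at an unadjusted p of at most 0.05, where 0.76% of all genes were called (0.583% higher and 0.178% lower). Among the genes lower on 0d were Kcnmb1 (-1.41), Clcn5 (-1.20) and Kcnk12 (-1.36), named after their values were seen. These counts depend on single libraries, as 10 genes were called on 5d without WT_5d replicate 3 and 1 without WT_5d replicate 2 or without PPARγ/+_5d replicate 3, and on 0d 3 were called without WT_0d replicate 3 and 2 without PPARγ/+_0d replicate 2. The interaction gave 4 calls without WT_5d replicate 3.

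**Figure D3:**
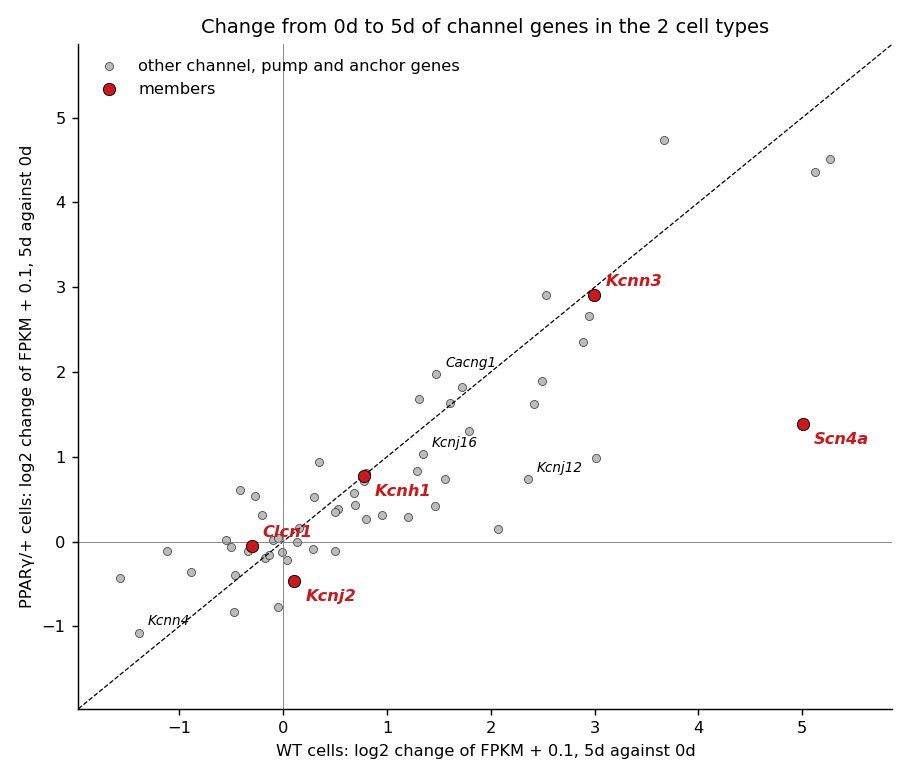
Log2 change of FPKM + 0.1 from 0d to 5d in WT cells (horizontal axis) and in PPARγ/+ cells (vertical axis) for 5 members (red) and 54 other channel, pump and anchor genes (grey), with the dashed line marking equal change. Kcnn3 lies near the line at 2.999 and 2.91, and Scn4a lies below it at 5.01 and 1.39.

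Among the other sodium channels tested, Scn10a, a channel of sensory neurons, rose by 2.41 in WT cells and by 1.62 in PPARγ/+ cells on the log2 scale, and the sodium leak channel Nalcn rose by 1.29 in WT cells. Both were named after their values were seen. Scn10a held 1.25, 0.856 and 0.4995 FPKM in WT cells and 0.353, 0.283 and 0.235 FPKM in PPARγ/+ cells on 5d. In FPKM, a level per length, Scn4a stood above Scn10a in every WT library of 5d and below it in every PPARγ/+ library of 5d. In PPARγ/+_5d replicate 3 they were nearly equal, at 0.229 FPKM of Scn4a and 0.235 FPKM of Scn10a with 30 and 28 fragments. The Scn4a values are those that chose the gene.

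Of the inward rectifiers, 3 of 16 listed genes besides Kcnj2 entered the tests. Kcnj12, which encodes Kir2.2, a partner of Kir2.1, held 2.41, 1.96 and 0.639 FPKM in WT cells on 5d and 0.0877, 0.169 and 0.0391 FPKM in PPARγ/+ cells, without overlap. It was lower in PPARγ/+ cells on 5d by -3.03 on the log2 scale (SE 0.47, adjusted p = 0.00956), a call lost without WT_5d replicate 2 (-2.83, adjusted p = 0.0527) and without PPARγ/+_5d replicate 3 (-2.80, adjusted p = 0.0538). On 0d it was at 0.11 to 0.404 FPKM in WT cells and 0 to 0.0298 FPKM in PPARγ/+ cells, and its rise in WT cells was 2.36 (SE 0.55, adjusted p = 0.0175). Per 1000 FPKM of the myotube markers, Kcnj12 was at 0.375, 0.415 and 0.469 FPKM in WT cells and at 0.0665, 0.113 and 0.0251 FPKM in PPARγ/+ cells on 5d. Kcnj16, the inward rectifier at the highest level after Kcnj2 in WT cells on 5d, rose in WT cells by 1.34 (SE 0.34, adjusted p = 0.0229) and in PPARγ/+ cells by 1.03 (SE 0.21, adjusted p = 0.00693).

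The remaining potassium channels moved in both directions. Kcnn4, the intermediate-conductance relative of Kcnn3, fell in WT cells by 1.39 (SE 0.09, adjusted p = 0.000269) and in PPARγ/+ cells by 1.07 (SE 0.11, adjusted p = 0.000338) on the log2 scale, opposite in direction to Kcnn3. Kcnn1, the other small-conductance channel tested, rose by 1.80 in WT cells and by 1.303 in PPARγ/+ cells, and was named after its values were seen. Kcnh2, the member of the ether-a-go-go family at the highest level, and Kcnk5, a two-pore-domain channel, were not called between the days in either cell type. Kcnk5 held 2.28 to 2.40 FPKM in WT cells and 1.41 to 1.58 FPKM in PPARγ/+ cells on 5d, with an adjusted p of 0.164.

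Clcn7, the lysosomal exchanger and the most abundant of the CLC genes, was at 11.7 to 14.8 FPKM on 5d in WT cells and 12.8 to 13.6 FPKM in PPARγ/+ cells, and it was called in no comparison.

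Most calcium channel and sodium pump subunits rose in both cell types. Of 4 calcium channel subunits tested, 3 were called higher in WT cells and 3 in PPARγ/+ cells, and of 7 pump subunits 5 and 4. Among them Cacna1s rose by 5.12 in WT cells and by 4.36 in PPARγ/+ cells on the log2 scale, named after its values were seen. Cacng1, the gamma subunit of the muscle calcium channel, held 30.8 to 86.2 FPKM in WT cells and 46.5 to 50.5 FPKM in PPARγ/+ cells on 5d. Its rise was 1.48 (SE 0.50, adjusted p = 0.061) in WT cells, where the call used the unadjusted p and the days overlapped, and 1.97 (SE 0.18, adjusted p = 0.000235) in PPARγ/+ cells. None of the calcium channel, pump and anchor genes was called between the cell types on 5d, with 2 of 4, 6 of 7 and 2 of 5 at an unadjusted p of at most 0.05 by limma.

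**Figure D4:**
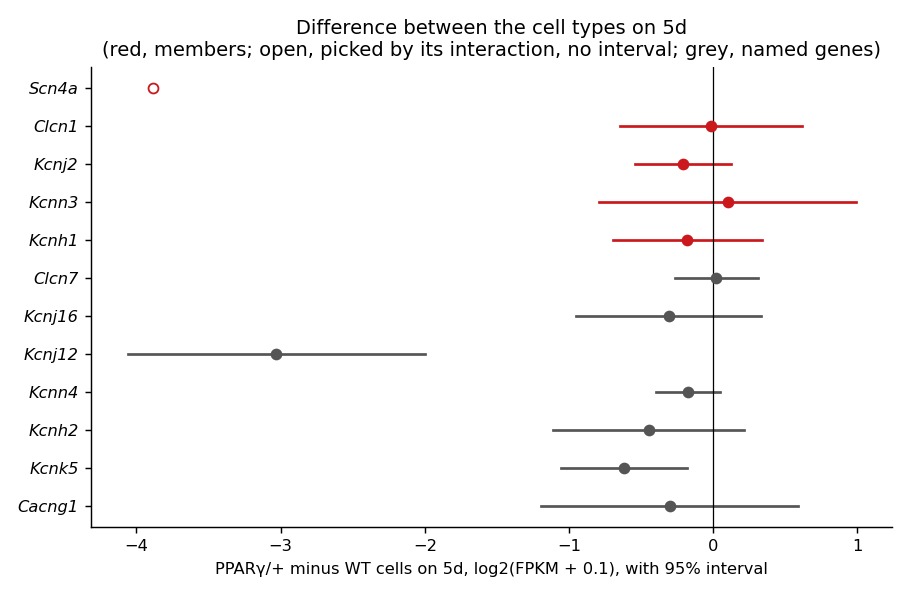
Difference between PPARγ/+ and WT cells on 5d, in log2(FPKM + 0.1), with its 95% interval from the fit over all 12 libraries, for 4 members tested (red) and 7 named genes of the channel groups (grey), and with Scn4a as an open point without interval because it was picked for its interaction, which rests on these libraries. Kcnj12 lies at -3.03, the intervals of Clcn1, Kcnj2, Kcnn3 and Kcnh1 include 0, and the point of Scn4a is at -3.88.

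The genes with the pattern most like each member over the 12 libraries were taken from 12400 genes with a mean of at least 1 FPKM in their highest group. For Scn4a they were Isx (Pearson r = 0.992), Slc44a4 (r = 0.991) and Dnase1l3 (r = 0.985), which reached 1.82, 2.94 and 1.002 FPKM in WT cells on 5d and 0.0828, 0.25 and 0.0974 FPKM in PPARγ/+ cells. For Kcnn3 they were Adamtsl2 (r = 0.987), Myo18b (r = 0.985) and Synpo2 (r = 0.984), of which Myo18b and Synpo2 encode proteins of the sarcomere and its Z-disc. These 3 rose in both cell types, from means of 0.0464, 0.0952 and 2.28 FPKM to 3.63, 1.89 and 13.5 FPKM in WT cells and to 2.14, 1.14 and 10.2 FPKM in PPARγ/+ cells. The genes most like Kcnj2 were the amino acid transporter Slc38a2 (r = 0.87), Prrx2 (r = 0.84) and the transporter Slc1a4 (r = 0.827). For Kcnh1 they were Irf1 (r = 0.98), Fam69a (r = 0.974) and Mtch1 (r = 0.964), and for Clcn1 they were Ctnnal1 (r = 0.866), Gm5577 (r = 0.85) and Dtwd1 (r = 0.796). These correlations describe 12 libraries that share the 4 groups. The genes were picked by them, so that they share the pattern of a member follows from the pick.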

How the data were processed

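Paired-end RNA-seq was made with a TruSeq RNA v2 kit from C2C12 cells in 4 groups of 3 libraries. The labels number the replicates 1 to 3, and p-values measure the spread between these libraries. Per the study's methods, the authors used Trim Galore for trimming, STAR for alignment and HTSeq for counting. The deposited values used are FPKM, which the authors calculated from gene counts, exon length and library size. The submitters' processing notes name build mm9 and the study's methods GRCm38. Exonic lengths of GRCm38 gave whole fragments, within 0.01, for 21224 of the 27138 genes above 0, among them 5 of the 6 members, and the smallest step gave those of Scn3b. Over these genes the recovered depth was 10836628 to 15133171 fragments per library. A deposited log2 copy by the authors, which differed by at most 5.3e-14, was not used.

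Genes with at least 0.1 FPKM in at least 3 libraries were tested with limma 3.58.1 (R 4.3.3, empirical Bayes with a trend) on log2(FPKM + 0.1), with Benjamini-Hochberg adjustment over all of them. Days were compared within the 6 libraries of a cell type and called at an unadjusted p of at most 0.05 and 2-fold, as in the study's methods. The other contrasts used all 12 libraries and an adjusted p of at most 0.05, with 2-fold except for the interaction. Fits were tried on simulated data in which 200 of 18023 genes were changed by 2 on the log2 scale. For the days, 96.5% were recovered in WT cells and 97.5% in PPARγ/+ cells, with 178 and 183 unchanged genes called. Between the cell types, 87.5% were recovered on 0d and 83.5% on 5d, with 7 and 2 unchanged genes called. The interaction recovered 75%, with 8 unchanged genes called. Fragment ratios have exact binomial intervals, except those of Scn4a, which are given without one. A test planned for the mean day and cell type effects of Scn4a is not given, since they rest on the libraries that chose it.

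The members and lists were chosen with earlier results of these data known. Named are the members, the gene of each group with the highest mean in WT cells on 5d, listed genes called between the cell types on 5d, the 3 tested genes most like each member, and Pparg, Myod1, Myog, Mef2c and Ckm. Cacna1s, Fam131b and the genes marked so in the text were added after their values were seen. Alternatives were another added value, filter or scaling, a replicate block, 1 fit over all libraries, adjusted p and left-out libraries. Some genes that this rule names are not reported here. Raw reads and protein sequences were not analysed here. Tables used Python 3.11.15, numpy 2.4.6, pandas 2.3.3 and scipy 1.17.1, and figures matplotlib 3.10.9.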

Additional observations from a re-analysis of the deposited data

How the results depend on the processing

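With 1 FPKM added in place of 0.1, 12 of the other channel, pump and anchor genes were called between the days in WT cells, 8 in PPARγ/+ cells and 9 over both cell types, 1 between the cell types over both days and 1 on 0d, and 0 members were called in PPARγ/+ cells or over both cell types. With 0.01 added, 2 members were called in each cell type and over both, Kcnh1 beside Kcnn3. Both passed the filter through libraries of 5d, so these counts of members are a description. A filter at 1 FPKM left 30 of the other genes, of which 13 were called in WT cells, 12 over both cell types, 4 between the cell types over both days, 3 on 0d and 1 on 5d. Leaving out libraries gave 4 to 13 calls between the cell types over both days (7 with all), 2 to 8 on 0d (6 with all), 1 to 11 on 5d (3 with all) and 0 to 8 in the interaction (0 with all). The highest of these came without WT_5d replicate 3, alone or with WT_0d replicate 2, a pair chosen after seeing the data because both stood apart in the myotube markers.

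No called change or difference of a member turned its direction. Values that were not called crossed 0. The change of Clcn1 in PPARγ/+ cells was 0.040 under median-ratio scaling and -0.22 to 0.073 with libraries left out, and its difference on 5d was -0.16 to 0.15. The change of Kcnj2 in WT cells was -0.052 to 0.21, and the Kcnn3 difference was -0.0038 to 0.42 on 0d and -0.40 to 0.43 on 5d. Median-ratio scaling gave all genes a median change of 0.02 in WT cells and 0.02 in PPARγ/+ cells, in place of -0.08 and -0.10. Same-numbered libraries did not deviate together (18 pairs, r from -0.068 to 0.083), and a replicate block changed no count of members called and left 3 calls among the other genes for PPARγ/+ against WT on 5d, 24 for the days in WT cells and 15 for those in PPARγ/+ cells.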
